A study of Mus musculus with 24 samples.

Results

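The 54 genes described here are those that dexamethasone, a synthetic glucocorticoid, raised at 4 h in mouse macrophages on its own, but not when lipopolysaccharide (LPS) was given with it. They were chosen by their measured values out of 21876 protein-coding genes, in a table of 55357 genes. CPM is a count scaled to the total of its library. A gene entered if its mean with dexamethasone alone at 4 h was at least 5 CPM and at least 2 times that of untreated cells. Its mean with dexamethasone plus LPS also had to be at most 1.1 times that of LPS alone at 4 h, and under 2 times that of LPS alone at 24 h. The ratios were taken after adding 0.5 CPM to each mean, with CPM scaled by library size only. The first condition held for 368 genes, the bound at 4 h left 79 of them, and the bound at 24 h left 54. A list of symbols to be dropped, which covers Slc, Zfp and Trim names, Ddit4 and Jaml, removed none of these 54. The values that chose the genes are given as a description with no test.

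Marrow of wild-type C57BL/6J mice aged 8 to 12 weeks had been grown into bone marrow-derived macrophages in medium with M-CSF from L929 cells. They form 8 groups of 3 libraries. At each of 4 h and 24 h there are cells given 100 nM dexamethasone and 100 ng LPS together, cells given 100 ng LPS, cells given 100 nM dexamethasone, and untreated cells, which the labels call Control. The volume that holds the LPS is not stated, and nothing in the labels tells if separate mice or cultures lie behind the 3 libraries of a group, so p-values measure the spread between these libraries only.

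Dexamethasone binds the glucocorticoid receptor, a transcription factor of the cytoplasm that moves to the nucleus, binds glucocorticoid response elements in DNA and raises transcription of nearby genes. The same receptor also holds back genes driven by NF-kB and AP-1. LPS, a part of the outer wall of Gram-negative bacteria, is sensed by Toll-like receptor 4 and switches on NF-kB, AP-1 and, through interferon beta, the interferon-stimulated genes. In macrophages both signals act on many of the same genes, among them brakes on inflammation such as Nfkbia, which codes for the inhibitor that holds NF-kB in the cytoplasm.

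Libraries held 18326206 to 27908164 counts, and no 2 replicates of a group agreed within sampling noise (chi-square of 3.05 to 8.32 per gene). All 9 macrophage markers were present in all 24 libraries, with sums of 16915 to 52331 CPM. Markers of other cells ranged widely. Ly6g of neutrophils, Cd3e of T cells and Ncr1 of natural killer cells were at no more than 0.117 CPM in any library, and Mcpt4 of mast cells had no count. In the same lists, S100a9 reached 71.6 CPM, S100a8 44.2 CPM and Ngp 32.5 CPM (neutrophil), Cd4 26.8 CPM (lymphocyte), and Ccr7 23.5 CPM and Flt3 15.3 CPM (dendritic cell) in their highest libraries. Kdr, listed here as an endothelial marker, reached 134 CPM with LPS at 4 h. Levels below are CPM scaled by library size and by edgeR's TMM factor, which corrects for a few very abundant transcripts. Adjusted p-values are those of edgeR (quasi-likelihood fit), adjusted by Benjamini-Hochberg over 14985 genes, and ± beside a log2 fold change is its approximate standard error. In bulk RNA, fewer cells that express a gene and less RNA of it per cell cannot be told apart.

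**Figure D1:**
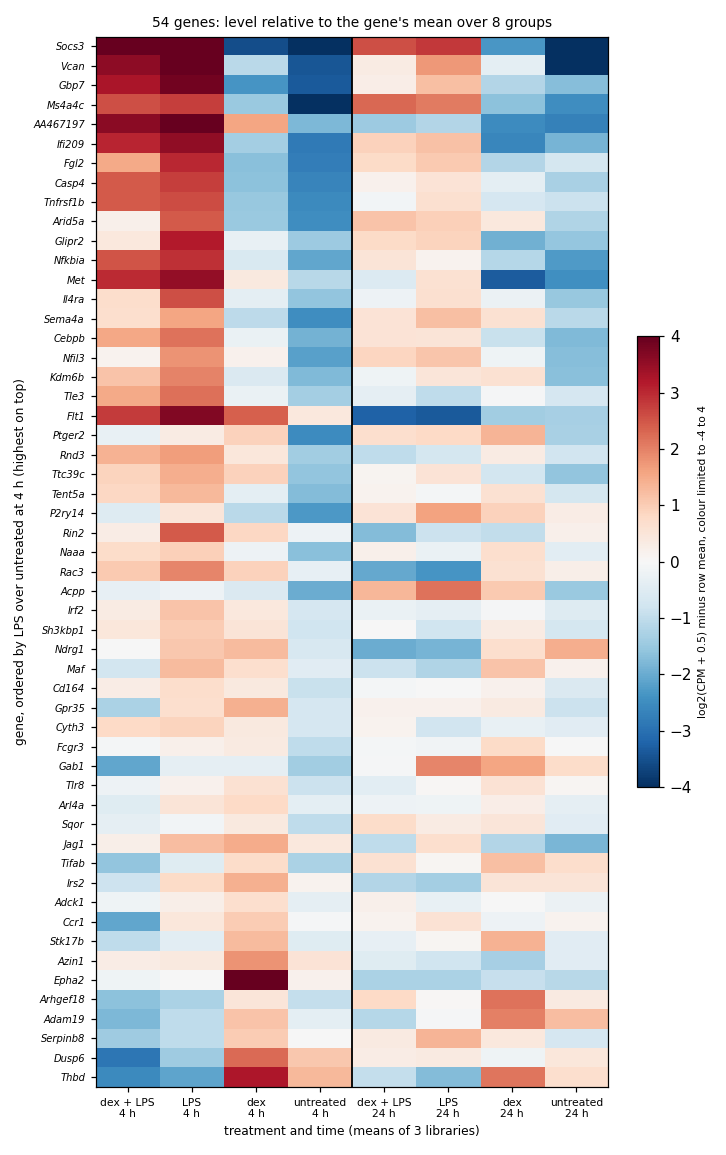
Each row is a gene of the set and each column a treatment and time. Colour is the mean of 3 libraries on the log2(CPM + 0.5) scale minus the row's mean over the 8 groups. Genes are ordered by LPS over untreated at 4 h, so that Socs3 (log2 fold change 10.21) is on top and Thbd (-3.78) at the bottom.

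Promoters of RefSeq (build GRCm38.p6), 300 bases from 250 before to 50 after an annotated start, were at hand for 48 of the 54 genes in 67 windows, and not for Azin1, Kdm6b, Maf, Ndrg1, Thbd and Ttc39c. They are shown to let the letters around the starts be read beside the levels. The core of the glucocorticoid response element was searched as ACANNNTGT, which reads the same on both strands, and was found in 8 of the 67 windows (11.9%), against 6.85% of all 32851 windows. NF-kB letters, GGG and CC with 5 bases between them on either strand, were found in 47 of 67 (70.1%), against 50.8% of all windows. The AP-1 letters TGANTCA were found in 12 (17.9%), against 7.81%, and the letters of the interferon-stimulated response element, a pair of TTTC with 2 bases between, in 4 (5.97%), against 3.44%. Matches of the NF-kB letters on the 2 strands can overlap, and windows of 1 gene can share bases. These shares are descriptions, and no match says only that the letters are not in the window. Fcgr3, Dusp6 and P2ry14 are shown with the receptor's core letters in capitals, because they stand for genes that LPS alone left higher, lower and higher than untreated at 4 h. Nfkbia is shown with the NF-kB letters in capitals.
Fcgr3, chr1:171059345-171059644, minus strand: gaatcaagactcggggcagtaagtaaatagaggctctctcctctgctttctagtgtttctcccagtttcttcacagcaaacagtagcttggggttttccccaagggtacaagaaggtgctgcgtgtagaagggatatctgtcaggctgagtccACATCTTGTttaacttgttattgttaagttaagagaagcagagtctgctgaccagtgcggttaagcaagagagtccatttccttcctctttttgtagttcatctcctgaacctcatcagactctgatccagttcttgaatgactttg
Dusp6, chr10:99262981-99263280, plus strand: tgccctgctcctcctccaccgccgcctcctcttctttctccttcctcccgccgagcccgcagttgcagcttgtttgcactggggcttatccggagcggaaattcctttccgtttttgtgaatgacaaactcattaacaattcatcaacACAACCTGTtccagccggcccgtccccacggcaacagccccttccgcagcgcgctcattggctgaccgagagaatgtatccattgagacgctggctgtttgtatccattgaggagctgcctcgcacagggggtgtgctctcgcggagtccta
P2ry14, chr3:59131069-59131368, minus strand: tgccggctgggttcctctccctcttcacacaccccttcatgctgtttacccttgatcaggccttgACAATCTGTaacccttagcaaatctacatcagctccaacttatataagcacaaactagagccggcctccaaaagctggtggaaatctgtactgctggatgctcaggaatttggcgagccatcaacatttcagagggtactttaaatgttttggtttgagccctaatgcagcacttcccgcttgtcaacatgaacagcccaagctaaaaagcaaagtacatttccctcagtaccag
Nfkbia, chr12:55492598-55492897, minus strand: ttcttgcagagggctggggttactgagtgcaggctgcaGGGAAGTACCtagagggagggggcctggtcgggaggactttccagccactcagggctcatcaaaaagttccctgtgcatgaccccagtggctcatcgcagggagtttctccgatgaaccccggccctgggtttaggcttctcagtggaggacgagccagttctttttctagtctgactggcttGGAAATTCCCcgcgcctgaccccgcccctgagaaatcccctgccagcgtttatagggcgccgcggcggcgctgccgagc

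With dexamethasone alone at 4 h the genes covered a wide range of levels and a narrow range of ratios. On the scale of the rule, levels ran from 5.11 to 864 CPM (median 54.1), and ratios to untreated cells from 2.01 to 21.7 (median 2.48). In the edgeR fit, with the TMM scaling, the fold was under 3 for 38 genes and 4 or more for 9. All 54 were called higher, where 17.6% of all genes tested were, and nothing is read from this, since the rule used the same libraries. Just inside the bound of 2 were Casp4 (2.01), Adck1 (2.01) and Rin2 (2.02), and just outside it Nod1 (1.98), Nxpe5 (1.98) and Slfn2 (1.98). Glipr2 (5.11 CPM) and Acpp (5.48 CPM) were the lowest inside the bound on level, with Btla (4.25 CPM) and Btg3 (3.65 CPM) below it. The ratio of both treatments to LPS at 4 h was highest for Cyth3 (1.09) and Azin1 (1.08), with Olfml2b (1.104) and Gfra4 (1.11) just above the bound of 1.1. At 24 h Cyth3 (1.91) and Thbd (1.78) were the nearest inside and Frat2 (2.01) and Pacs2 (2.10) the nearest outside.

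The highest ratios belonged to genes with little expression in untreated cells. Epha2, an ephrin receptor tyrosine kinase, had 29.9, 35.1 and 24.6 CPM in dexamethasone-treated cells, against 1.09, 0.645 and 1.15 CPM in untreated cells (log2 fold change 4.93). Ptger2, the EP2 receptor of prostaglandin E2, had 21.6, 24.1 and 23.9 CPM with dexamethasone and 1.37, 1.66 and 2.02 CPM without (3.81). AA467197, the mouse counterpart of human C15orf48, had 16.3, 14.5 and 9.81 CPM with dexamethasone and 1.15, 0.553 and 0.874 CPM without (3.90). In each of these genes all dexamethasone libraries lay above all untreated ones. Ms4a4c, a membrane protein of the MS4A family (2.78), Ttc39c (2.56), Vcan, the matrix proteoglycan versican (2.50), Gpr35, a G protein-coupled receptor (2.43), and Nfil3, a bZIP transcription factor (2.42), came next. The most abundant gene was Azin1, whose product binds antizyme and so spares ornithine decarboxylase, at 827, 694 and 703 CPM with dexamethasone and 334, 283 and 309 CPM without. Fcgr3, the Fc gamma receptor III gene, followed with 720.0, 691 and 688 CPM with dexamethasone and 271, 253 and 286 CPM without. Next was Maf, a macrophage lineage transcription factor, with 608, 609.7 and 589.7 CPM with dexamethasone and 289, 248 and 297 CPM without. Between these groups the dendritic cell sum was 16.5 to 17.5 CPM with dexamethasone and 5.52 to 7.58 CPM without, the stromal and endothelial sum 1.83 to 2.68 CPM with dexamethasone and 14.4 to 21.03 CPM without, and the neutrophil sum 31.4 to 42.2 CPM with dexamethasone and 42.1 to 61.6 CPM without. Their part in the result was not tested.

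The genes did not share 1 response to LPS alone at 4 h. Relative to untreated cells LPS stood at least 2-fold higher for 39 of them, within 2-fold for 13 and at least 2-fold lower for 2. With CPM scaled by totals alone, which adds a shift of -0.77 (log2) here, the counts were 31, 17 and 6. At 33 genes the LPS level was above that of dexamethasone alone, and at 24 it was 8-fold or more above untreated. The median log2 fold change of LPS was 2.53 over the 54 genes and -0.07 over all 14985 genes tested. LPS against untreated at 4 h was called higher for 46 of the 54 (34.2% of all genes) and lower for 5 (38.8%). Both groups of libraries also entered the rule, whose bounds favour a high LPS level and a low untreated one, and nothing is read from these counts. Between LPS and untreated cells at 4 h the stromal and endothelial sum was 102 to 143 CPM with LPS and 14.4 to 21.03 CPM in untreated cells, the dendritic cell sum 32.1 to 45.9 CPM with LPS and 5.52 to 7.58 CPM in untreated cells, and the neutrophil sum 118 to 164 CPM with LPS and 42.1 to 61.6 CPM in untreated cells. Their part in the result was not tested.

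The largest class holds 26 genes at which LPS alone stood at least 2-fold above untreated and the level with both treatments was above that of dexamethasone alone. Nfkbia had 1888, 1923 and 2006 CPM with both treatments, 2570.5, 2688 and 2392 CPM with LPS, 206, 231 and 229.9 CPM with dexamethasone and 84.2, 77.3 and 78.1 CPM in untreated cells. Socs3, a feedback inhibitor of cytokine receptors that signal through STAT3, had 1579.6, 1642 and 1747 CPM with both, 3296, 3442 and 3114 CPM with LPS, 5.41, 8.12 and 6.26 CPM with dexamethasone and 3.65, 2.30 and 2.02 CPM in untreated cells. Tnfrsf1b, TNF receptor 2, had 5441, 5744 and 6022 CPM with both, 6430.0, 6445 and 6366 CPM with LPS, 366, 367 and 384 CPM with dexamethasone and 172, 186 and 179 CPM in untreated cells. In these genes the groups with LPS lay far above both groups without it. For the transcription factor Cebpb, which serves acute inflammatory transcription, the means were 549.8 ± 81.6 CPM with both, 862 ± 48.95 CPM with LPS, 158 ± 7.89 CPM with dexamethasone and 50.9 ± 2.49 CPM in untreated cells (SD, n = 3 each). Interferon-stimulated and related genes fell in this class too: Ifi209, of the Ifi200 family, at 1094 ± 183 CPM with both and 1534 ± 64.3 CPM with LPS, and Gbp7, a guanylate-binding protein, at 437 ± 61.04 CPM with both and 664 ± 29.8 CPM with LPS. Casp4 (mouse caspase-11, the sensor of LPS in the cytosol) was at 282 ± 2.37 CPM with both and 354 ± 6.44 CPM with LPS. Gbp7, Ifi209 and Ms4a4c belong to families of near-identical genes, and the counting left out reads that match several places, so their levels are uncertain. The other genes of this class are AA467197, Acpp, Arid5a, Cyth3, Fgl2, Flt1, Glipr2, Il4ra, Kdm6b, Met, Ms4a4c, Naaa, P2ry14, Rac3, Rnd3, Sema4a, Tent5a, Tle3 and Vcan. For Acpp (0.30, adjusted p = 0.20) and Rac3 (0.13, adjusted p = 0.40) both treatments against dexamethasone alone was not called.

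Across the 54 genes, both treatments against LPS at 4 h gave log2 fold changes of -2.83 to -0.10, with a median of -0.64. Here 47 genes were called lower, where 25.4% of all genes tested were. Nothing is read from this count, since the rule capped the same comparison in the same libraries. On the scale of the rule 5 genes stood above 1, and with TMM scaling none did. The 2 scalings differ by 0.22 (log2) here. At 17 genes the level with both was at or below 0.5 of the LPS level, and at 7 at or below 0.25. Among the 7 were Maf, at 197, 247 and 238 CPM with both and 875, 906 and 959 CPM with LPS, and Rin2, a Rab5 exchange factor, at 209.6, 253 and 249 CPM with both and 1067, 1074 and 1053 CPM with LPS. Maf with both treatments lay below all untreated libraries, although dexamethasone alone and LPS alone each stood above them. Arid5a, an RNA-binding protein that stabilises Il6 mRNA, was at 28.1, 27.5 and 24.1 CPM with both and 141, 139 and 108 CPM with LPS. Glipr2 was at 7.58, 8.11 and 6.98 CPM with both and 51.5, 54.9 and 54.7 CPM with LPS. Ccr1, a receptor of inflammatory CC chemokines, was at 5.19, 5.51 and 2.71 CPM with both and 36.4, 19.97 and 28.5 CPM with LPS. Gpr35 and Gab1, a docking protein of growth factor receptors, complete the 7, with log2 fold changes of -2.52 and -2.03. Il4ra, the interleukin 4 receptor alpha chain, was the next, at 340.2 ± 28.6 CPM with both and 1245 ± 17.5 CPM with LPS. Some markers of other cells were also lower with both than with LPS at 4 h. The stromal and endothelial sum was 22.1 to 28.3 CPM with both and 102 to 143 CPM with LPS. The dendritic cell sum was 12.8 to 17.7 CPM with both and 32.1 to 45.9 CPM with LPS, and the lymphocyte sum 5.04 to 7.14 CPM with both and 7.76 to 10.1 CPM with LPS. The ranges of the neutrophil sum overlapped, at 81.1 to 125 CPM with both and 118 to 164 CPM with LPS. Their part in the result was not tested.

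At 11 genes LPS alone was within 2-fold of untreated and the level with both treatments lay below untreated. Stk17b, a serine/threonine kinase gene, had 49.7, 48.2 and 50.5 CPM with both, 74.7, 69.8 and 77.8 CPM with LPS, 242, 235 and 240.0 CPM with dexamethasone and 71.2, 67.1 and 74.2 CPM in untreated cells. Epha2 had 0.571, 0.726 and 0.609 CPM with both and 0.523, 0.399 and 1.44 CPM with LPS, so that it stood out in the cells with dexamethasone alone. Azin1 had 265, 263 and 249 CPM with both and 283, 278 and 279.8 CPM with LPS, while untreated cells had 334, 283 and 309 CPM, so that all libraries with both lay below the untreated ones. Tifab, an inhibitor of TRAF6 signalling, was at 20.6 ± 2.63 CPM with both, 44.8 ± 8.23 CPM with LPS, 104 ± 0.93 CPM with dexamethasone and 26.1 ± 1.62 CPM in untreated cells (SD, n = 3 each). Irs2, an adaptor of the insulin receptor (-2.34 for both against dexamethasone), Jag1, a Notch ligand (-1.26), Adam19, a membrane metalloprotease (-3.09), Arhgef18, a guanine nucleotide exchange factor (-2.41), and Serpinb8, a serine protease inhibitor (-2.47), belong here as well, with Ccr1, Arl4a and Epha2. Adck1 and Sqor were also within 2-fold with LPS, and with both treatments they lay between untreated and dexamethasone alone.

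At 10 more genes LPS alone stood at least 2-fold above untreated, and the level with both lay between untreated and dexamethasone alone. Fcgr3 had 485, 560.2 and 522 CPM with both, 639, 636 and 597 CPM with LPS, 720.0, 691 and 688 CPM with dexamethasone and 271, 253 and 286 CPM in untreated cells. Ptger2 had 10.2, 8.96 and 10.02 CPM with both, 15.8, 13.1 and 16.4 CPM with LPS, 21.6, 24.1 and 23.9 CPM with dexamethasone and 1.37, 1.66 and 2.02 CPM in untreated cells. Irf2 was at 133 ± 14.4 CPM with both, 237 ± 2.23 CPM with LPS, 142 ± 6.79 CPM with dexamethasone and 67.00 ± 2.92 CPM in untreated cells (SD, n = 3 each). In these 3 genes each single treatment stood above untreated, and the mean with both did not exceed that with dexamethasone alone. The others are Cd164, Ndrg1, Nfil3, Rin2, Sh3kbp1, Tlr8 and Ttc39c. For Cd164, Irf2, Nfil3, Sh3kbp1 and Ttc39c both treatments against dexamethasone alone was not called (log2 fold changes of -0.09 to -0.04).

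LPS stood at least 2-fold below untreated at 4 h for Thbd and Dusp6. Thbd, the thrombomodulin gene, which codes for an anticoagulant receptor, had 0.779, 0.605 and 1.66 CPM with both, 1.46, 1.65 and 1.56 CPM with LPS, 87.9, 82.6 and 80.96 CPM with dexamethasone and 22.2, 22.4 and 19.7 CPM in untreated cells. Dusp6, a phosphatase that inactivates ERK, had 3.53, 3.51 and 2.99 CPM with both, 9.09, 9.93 and 11.2 CPM with LPS, 126, 145 and 143 CPM with dexamethasone and 59.4, 58.2 and 62.7 CPM in untreated cells. For both genes the groups with LPS lay below the untreated group without overlap. Over the whole set, on the TMM scale, the level with both treatments at 4 h was above that of dexamethasone alone for 26 genes, between untreated and dexamethasone alone for 12 and below untreated for 16. All 26 of the first kind and 3 of the last were genes at which LPS alone stood at least 2-fold above untreated. The places follow group means, and some of the differences are small. Totals alone as the scale shift both treatments against dexamethasone by -0.54 (log2) at 4 h, which can place fewer genes above dexamethasone alone.

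**Figure D2:**
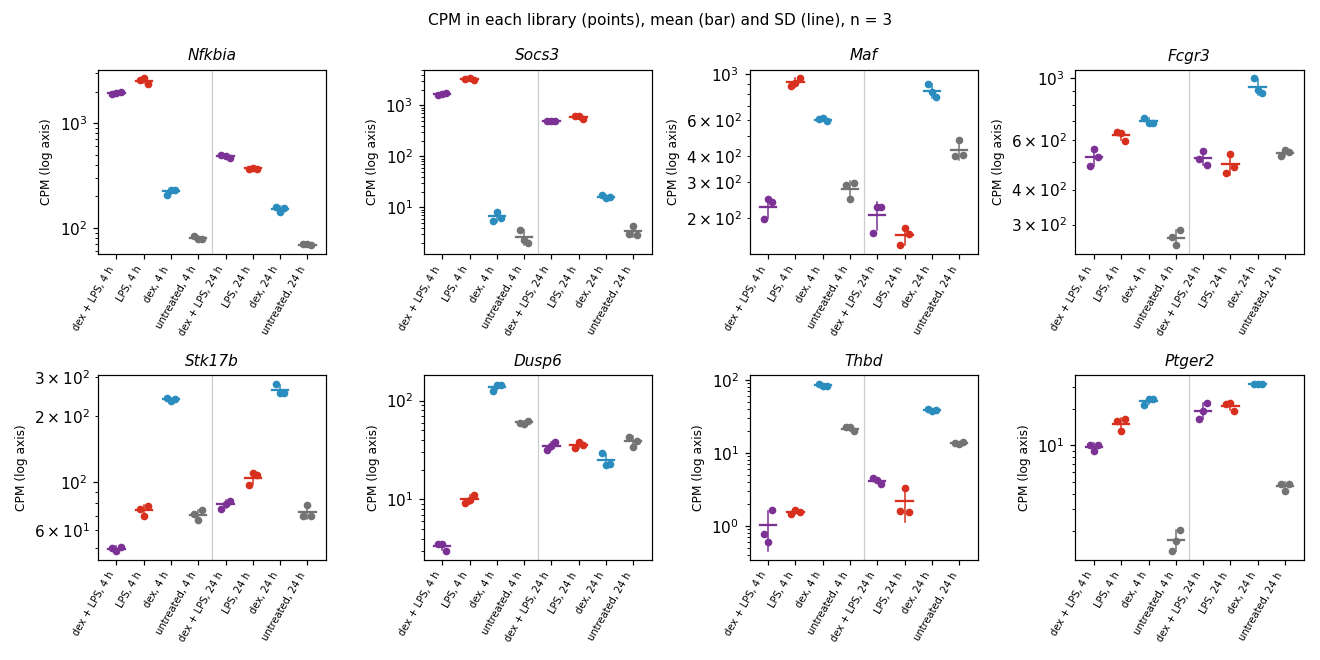
Each panel gives the CPM of 1 gene in every library on a log axis, for 4 treatments at 4 h and at 24 h, with the mean as a bar and the SD as a line. At 4 h Nfkbia and Socs3 are highest with LPS, Maf with both treatments lies below untreated, Dusp6 and Thbd with LPS lie below untreated, and Stk17b and Ptger2 are highest with dexamethasone alone.

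Dexamethasone alone against untreated at 24 h is the measure that the rule did not use: neither group of libraries entered it. At this time 41 of the 54 genes rose, where 21.9% of all genes tested did, and 7 fell, where 26.5% did, with 6 not called. The median log2 fold change was 0.81 over the 54 genes and 0.00 over all genes tested, and 19 of the 41 were at least 2-fold. The log2 fold change was larger at 24 h than at 4 h for 10 of the 54. Markers of other cells also moved between these groups. The sum of 8 dendritic cell markers was 10.26 to 10.32 CPM with dexamethasone and 2.81 to 3.40 CPM in untreated cells, and that of 8 lymphocyte markers 5.58 to 6.73 CPM with dexamethasone and 24.6 to 27.2 CPM in untreated cells. The sum of 9 neutrophil markers was 0.965 to 2.40 CPM with dexamethasone and 3.05 to 3.67 CPM in untreated cells, and that of 8 stromal and endothelial markers 5.50 to 8.34 CPM with dexamethasone and 15.4 to 22.8 CPM in untreated cells. Mast cell and basophil markers were under 1 CPM in sum in both groups. Their part in the result was not tested.

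The largest rises at 24 h were those of Vcan, Ptger2, Acpp, Kdm6b and Socs3. Vcan had 29.01, 30.1 and 26.4 CPM with dexamethasone and 0.724, 1.21 and 0.492 CPM in untreated cells (5.10 ± 0.23, adjusted p = 2.1e-13). Ptger2 had 31.8, 31.8 and 32.01 CPM with dexamethasone and 4.84, 4.22 and 4.83 CPM in untreated cells (2.78 ± 0.12, adjusted p = 5.4e-21). Acpp, an acid phosphatase gene, had 17.1, 13.2 and 16.3 CPM with dexamethasone and 2.31, 2.74 and 1.70 CPM in untreated cells (2.78 ± 0.20, adjusted p = 2.4e-13). The dexamethasone libraries lay above the untreated ones without overlap in all of these. Kdm6b, a demethylase of histone H3 lysine 27, had 36.4, 41.5 and 38.5 CPM with dexamethasone and 7.29, 7.23 and 7.79 CPM in untreated cells (2.38 ± 0.10, adjusted p = 7.9e-21). Socs3 had 17.3, 15.2 and 16.2 CPM with dexamethasone and 2.99, 4.26 and 2.91 CPM in untreated cells (2.25 ± 0.16, adjusted p = 2.3e-11). For Vcan, Acpp, Kdm6b and Socs3 the fold was larger than at 4 h, and for Ptger2 it was smaller (3.81 at 4 h).

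Genes of several roles rose with them. Among transcription factors and chromatin genes these were Nfil3 (1.57 ± 0.10), Arid5a (1.67 ± 0.11), Maf (0.95 ± 0.11, 830.4 ± 61.8 against 429 ± 45.2 CPM), Cebpb (0.87 ± 0.08), the corepressor gene Tle3 (0.63 ± 0.07) and Irf2, an interferon regulatory factor (0.48 ± 0.06). Among brakes on signalling, Nfkbia had 159, 141 and 153 CPM with dexamethasone and 69.7, 69.4 and 67.9 CPM in untreated cells (1.13 ± 0.06, adjusted p = 8.2e-19), and Tifab rose by less (0.48 ± 0.10). Surface receptors included Fcgr3, at 999.6, 903 and 887 CPM with dexamethasone and 526, 552 and 543 CPM in untreated cells (0.78 ± 0.06, adjusted p = 1.2e-13). Il4ra (1.29 ± 0.08), Gpr35 (1.55 ± 0.25), Sema4a, a semaphorin of immune cells (1.69 ± 0.12), P2ry14, the UDP-glucose receptor (0.62 ± 0.10), and Tlr8, a sensor of single-stranded RNA (0.50 ± 0.08), rose as well. Thbd was at 39.6, 37.6 and 38.2 CPM with dexamethasone and 13.7, 13.1 and 14.2 CPM in untreated cells (1.496 ± 0.11, adjusted p = 1.4e-13). Stk17b was at 280.5, 256 and 255 CPM with dexamethasone and 69.7, 78.6 and 69.6 CPM in untreated cells (1.86 ± 0.06, adjusted p = 1.1e-24), close to its value at 4 h (1.75). Of genes that act on small GTPases and the cytoskeleton, Arhgef18 (1.84 ± 0.11), Rnd3 (1.098 ± 0.09), Sh3kbp1 (1.02 ± 0.05), Arl4a (0.66 ± 0.12), Rac3 (0.40 ± 0.14) and Cyth3 (0.18 ± 0.06) rose. Enzyme genes among the risers included Naaa, an acid amidase of lysosomes (1.11 ± 0.08), and Sqor, sulfide quinone oxidoreductase of mitochondria (0.94 ± 0.07). Adam19 (0.78), Casp4 (0.92), Cd164, a sialomucin (0.74), Gab1 (0.87), Gbp7 (0.56), Jag1 (0.70), Ms4a4c (0.84), Serpinb8 (1.11), Tent5a, a poly(A) polymerase (1.32), Tnfrsf1b (0.20) and Ttc39c (0.87) complete the 41. The calls of Cyth3 and Adck1 were lost without some of the libraries. Cyth3 was not called without untreated library 2 (0.16, adjusted p = 0.073), and Adck1 (0.24 ± 0.09) was not called without any 1 of the 3 untreated libraries, or of dexamethasone libraries 2 and 3 (adjusted p of 0.063 to 0.089).

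At 24 h Met, Rin2, Azin1, Ndrg1, Ifi209, Dusp6 and Fgl2 were lower with dexamethasone than in untreated cells. At 4 h they had been higher. Untreated levels also moved between the times. At 24 h against 4 h they were higher (log2) for Ndrg1 (2.11), Fgl2 (2.09), Ifi209 (0.97) and Rin2 (0.42). They were lower for Met (-1.66), Azin1 (-1.01) and Dusp6 (-0.63). With dexamethasone, Fgl2 was higher at 24 h than at 4 h (0.49), and the others were lower. Met, the receptor of hepatocyte growth factor, had 0.497, 0.401 and 0.545 CPM with dexamethasone and 1.40, 1.45 and 1.07 CPM in untreated cells (-1.43 ± 0.32, adjusted p = 0.00035). Rin2 had 104, 95.2 and 93.6 CPM with dexamethasone and 235, 202 and 228 CPM in untreated cells (-1.18 ± 0.07, adjusted p = 6.2e-17). Azin1 had 86.3, 86.6 and 77.9 CPM with dexamethasone and 163, 139.9 and 157 CPM in untreated cells (-0.88 ± 0.07, adjusted p = 2.7e-13). In these genes all dexamethasone libraries lay below all untreated ones. Ndrg1 was at 68.4 ± 2.76 CPM with dexamethasone and 118 ± 3.92 CPM in untreated cells (-0.78 ± 0.07), Dusp6 at 24.9 ± 3.95 CPM with dexamethasone and 38.8 ± 4.60 CPM in untreated cells (-0.64 ± 0.09), and Fgl2, a secreted fibrinogen-like protein, at 50.1 ± 1.87 CPM with dexamethasone and 69.6 ± 14.8 CPM in untreated cells (-0.48 ± 0.15). Ifi209 had 22.96, 24.2 and 16.2 CPM with dexamethasone and 29.3, 49.8 and 27.4 CPM in untreated cells (-0.76 ± 0.23, adjusted p = 0.011). Its call was lost without untreated library 2 (-0.43, adjusted p = 0.11). It was also lost without dexamethasone library 3 (-0.60, adjusted p = 0.064). Epha2, which had the highest ratio at 4 h, was nearly absent at 24 h, with 13 counts over the 3 dexamethasone libraries and 7 over the 3 untreated ones (0.85 ± 0.74, adjusted p = 0.37). AA467197 was also near its detection limit, with 23 and 16 counts (0.51 ± 0.63, adjusted p = 0.55). Ccr1, Flt1, Glipr2 and Irs2 were the other genes not called, with log2 fold changes of -0.49 for Glipr2 to 0.02 for Irs2.

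**Figure D3:**
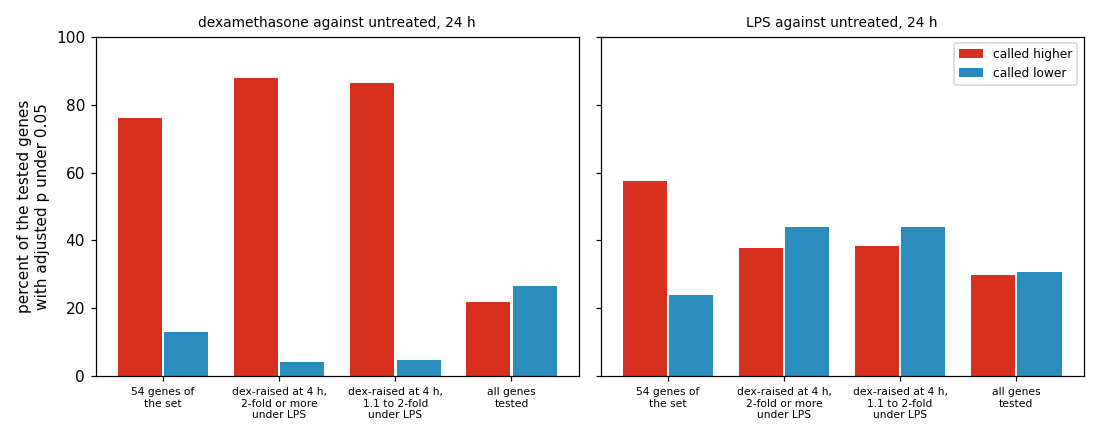
Bars give the percent of tested genes called higher or lower at 24 h (edgeR, adjusted p under 0.05) for the 54 genes, for 2 other sets of genes that dexamethasone raised at 4 h, and for all 14985 genes. With dexamethasone 75.9% of the 54 genes are called higher, against 87.8 and 86.4% in the other dexamethasone-raised sets and 21.9% of all genes. With LPS the share called higher is 57.4% against 37.8, 38.4 and 29.7%. The rule's bound at 24 h favours a high LPS level in the 54. It also left out 25 genes that stood at least 2 times higher with both than with LPS at 24 h. The other sets had no such bound, so the shares with dexamethasone and with LPS are descriptions of unlike sets.

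LPS alone against untreated at 24 h used untreated libraries that the rule did not see, while the LPS libraries of 24 h set its upper bound at that time. That bound favours genes with a high LPS level, so the counts and p-values here are a description. In this comparison 31 of the 54 genes rose (29.7% of all genes tested did) and 13 fell (30.6%), with 10 not called, and 26 of the rises were at least 2-fold. The median log2 fold change was 0.69 for the 54 genes and -0.02 for all genes. Socs3, at 611, 629 and 536 CPM with LPS and 2.99, 4.26 and 2.91 CPM in untreated cells (7.43 ± 0.14, adjusted p = 9.7e-23), and Vcan, at 135, 117 and 126 CPM with LPS and 0.724, 1.21 and 0.492 CPM in untreated cells (7.24 ± 0.20, adjusted p = 2.6e-17), rose furthest. Ms4a4c (4.60 ± 0.13), Acpp (3.93 ± 0.19), Met (3.46 ± 0.17) and Ifi209 (3.04 ± 0.21) came next. Among the falls, Ndrg1 was at 10.4, 13.1 and 10.8 CPM with LPS and 116, 122 and 115 CPM in untreated cells (-3.37 ± 0.09, adjusted p = 8.6e-28). Rac3 (-3.06 ± 0.20), Thbd (-2.68 ± 0.16), Irs2 (-1.98 ± 0.15) and Maf (-1.38 ± 0.11) fell too, and Flt1, VEGF receptor 1, had 4 counts over the 3 LPS libraries against 1.99, 1.21 and 2.33 CPM in untreated cells. Maf and Ndrg1, which LPS had left above untreated at 4 h (1.72 and 1.74), were thus below it at 24 h, and Serpinb8 was below untreated at 4 h (-0.99) and higher at 24 h (2.06 ± 0.08). Scaling by totals alone shifts these values by -0.20 (log2) and gives 30 rises and 18 falls. The stromal and endothelial sum was 26.02 to 28.5 CPM with LPS and 15.4 to 22.8 CPM in untreated cells, that of dendritic cell markers 3.49 to 5.90 CPM with LPS and 2.81 to 3.40 CPM in untreated cells, that of neutrophil markers 9.03 to 10.9 CPM with LPS and 3.05 to 3.67 CPM in untreated cells, and that of lymphocyte markers 5.52 to 6.99 CPM with LPS and 24.6 to 27.2 CPM in untreated cells. Their part in the result was not tested.

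Dexamethasone given with LPS, against LPS, was bounded from above by the rule at 24 h too, and its values there are a description. The log2 fold change ran from -2.06 for Gab1 to 0.96 for Thbd, with a median of -0.13 over the 54 genes and 0.00 over all genes. It was called higher for 13 genes (21% of all genes tested) and lower for 21 (22.6%), and the level with both was at or below 0.5 of that with LPS for 7. Of the 41 genes that dexamethasone alone raised at 24 h, 12 were also called higher under LPS, 19 were called lower and 10 were not called. Sh3kbp1, an adaptor of receptor endocytosis, was among the 12, at 205, 204 and 217 CPM with both and 121, 123 and 121 CPM with LPS, and 268, 263 and 253 CPM with dexamethasone and 128, 131 and 127 CPM in untreated cells. Nfkbia was another, at 501, 482 and 460.3 CPM with both and 367, 371 and 368 CPM with LPS. Vcan was among the 19, at 56.4, 46.2 and 38.1 CPM with both and 135, 117 and 126 CPM with LPS. Jag1 was at 17.3, 13.04 and 15.3 CPM with both and 57.02, 50.9 and 42.7 CPM with LPS, while dexamethasone alone had 13.1, 12.9 and 15.4 CPM against 8.37, 7.74 and 9.40 CPM in untreated cells. Gab1 was at 6.07, 9.73 and 6.75 CPM with both and 27.3, 34.8 and 31.9 CPM with LPS, and at 24.7, 24.9 and 22.6 CPM with dexamethasone and 13.3, 12.3 and 13.9 CPM in untreated cells. In both Jag1 and Gab1 dexamethasone stood above untreated on its own and below LPS when given with it. Between both treatments and LPS at 24 h the stromal and endothelial sum was 3.19 to 4.05 CPM with both and 26.02 to 28.5 CPM with LPS. The dendritic cell sum was 0.828 to 1.14 CPM with both and 3.49 to 5.90 CPM with LPS, and the lymphocyte sum 2.36 to 2.65 CPM with both and 5.52 to 6.99 CPM with LPS. The neutrophil sum was higher with both, at 17.4 to 23.4 CPM against 9.03 to 10.9 CPM with LPS. Their part in the result was not tested.

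The interaction at 24 h tests whether the dexamethasone effect under LPS differs from the effect without LPS. It was called lower under LPS for 35 of the 54 genes, where 17.8% of all genes tested were, and higher for 5, where 20.5% were, with 14 not called. The rule capped the first of the 2 effects, and its bound at 24 h had left out 25 genes for a higher level with both. This count is therefore a description of the 54 genes only. It cannot say how far the pattern of 4 h is also seen at 24 h. The median interaction was -0.78 (log2) for the 54 genes and 0.01 for all genes. All 35 were among the 41 genes that dexamethasone alone raised at 24 h. With the effect under LPS capped, a rise with dexamethasone alone favours a lower interaction, so nothing is read from this overlap. The largest differences were those of Vcan (-6.52 ± 0.26, adjusted p = 5.2e-14), Acpp (-3.65 ± 0.25, adjusted p = 1.8e-13) and Kdm6b (-3.03 ± 0.14, adjusted p = 1.8e-19). Ptger2 had 16.5, 19.1 and 22.3 CPM with both and 21.7, 22.4 and 19.3 CPM with LPS, overlapping groups, and an interaction of -2.92 ± 0.16 (adjusted p = 1.8e-17). The 5 genes with a higher interaction were Azin1, Cyth3, Dusp6, Ndrg1 and Rin2. Of these Cyth3 was at 69.04, 70.6 and 69.8 CPM with both, 40.8, 35.5 and 34.9 CPM with LPS, 52.05, 52.2 and 51.7 CPM with dexamethasone and 46.7, 44.3 and 46.4 CPM in untreated cells (0.73 ± 0.09). Thbd, Tifab, Tle3, Rac3 and Adck1 rose with dexamethasone alone and did not pass the interaction test. Their interactions were -0.54 ± 0.24, 0.04 ± 0.14, 0.02 ± 0.09, 0.02 ± 0.29 and 0.26 ± 0.13, in this order.

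**Figure D4:**
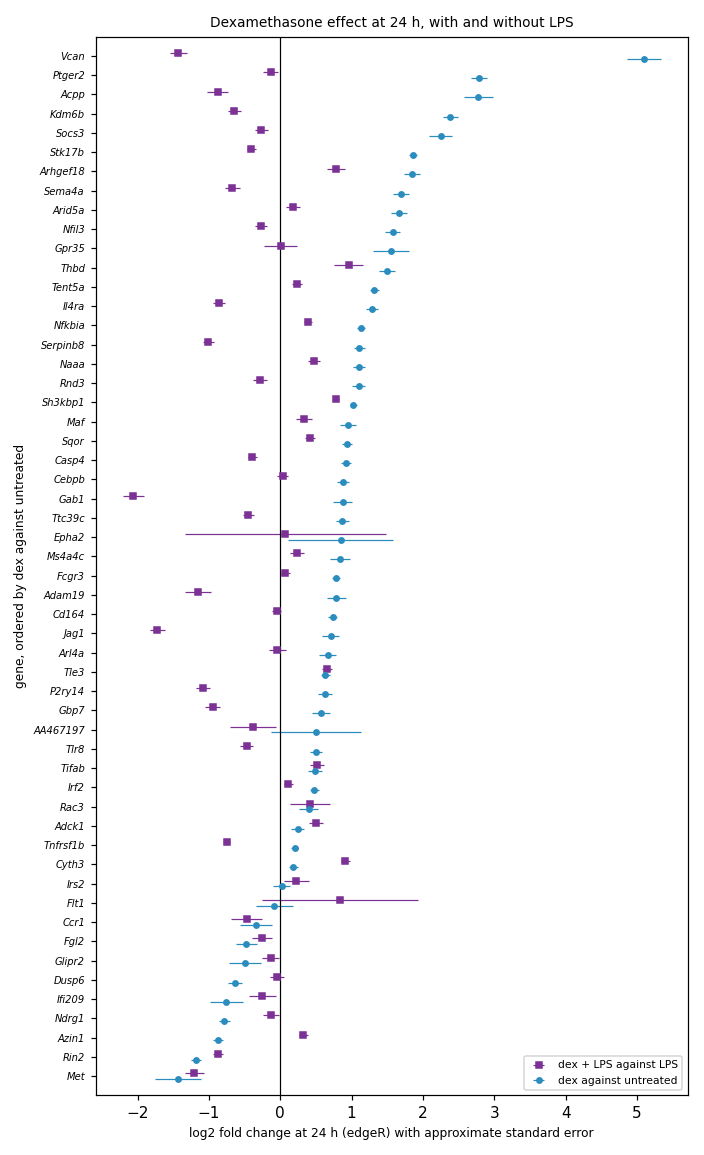
For each gene the square is the log2 fold change of dexamethasone plus LPS against LPS at 24 h and the circle that of dexamethasone against untreated, with lines for the approximate standard error. Circles lie right of 0 for 44 of the 54 genes and squares for 23, and the gap is widest for Vcan.

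Most of the other genes that passed the same bounds for dexamethasone at 4 h were also called higher with dexamethasone alone at 24 h. Dexamethasone plus LPS was at least 2 times LPS at 4 h for 164 of the 368, of which 144 (87.8%) rose with dexamethasone alone at 24 h and 7 fell. For the 125 between 1.1 and 2 times, 108 (86.4%) rose and 6 fell. Of all genes tested, 21.9% rose and 26.5% fell with dexamethasone alone at 24 h, and 29.7% rose and 30.6% fell with LPS alone. With LPS alone at 24 h, 62 of the 164 rose and 72 fell (median log2 fold change -0.16), and 48 of the 125 rose and 55 fell (-0.12), against 31 and 13 of the 54 (0.69). The difference between these sets was not tested. The rule's bound at 24 h favours a high LPS level in the 54. It also left out 25 genes that stood at least 2 times higher with both than with LPS at 24 h. The sets of 164 and 125 had no such bound, so neither the dexamethasone nor the LPS counts compare like with like.

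Classical glucocorticoid target genes, a list of 26 of which 25 were tested and 1, Nfkbia, is among the 54, are set beside them because they hold the best known direct responses to the receptor. With dexamethasone alone against untreated at 4 h, 17 of the 25 rose (17.6% of all genes tested) and 5 fell (23.7%). With both treatments against LPS at 4 h, 15 of the 25 rose (23.9% of all genes tested) and 9 fell (25.4%), with a median log2 fold change of 0.91. The 9 include the 5 that fell with dexamethasone alone, which are Rgs2, Tgm2, Cdkn1c, Angptl4 and Anxa1. Fkbp5, a co-chaperone of the receptor (3.78 ± 0.07, adjusted p = 9.2e-32), and Tsc22d3, the glucocorticoid-induced leucine zipper (7.21 ± 0.10, adjusted p = 1.7e-35), rose, and Errfi1 (-2.99 ± 0.14) and Cebpd (-0.65 ± 0.11) fell. With dexamethasone alone at 4 h Errfi1 was not called (-0.17 ± 0.15, adjusted p = 0.41) and Cebpd rose (0.77 ± 0.14). Nr3c1, the receptor itself, was lower with both than with LPS at 4 h (-0.34 ± 0.05, adjusted p = 1.7e-06) and stood above untreated with LPS alone (2.11 ± 0.06). Of 14 genes of the receptor and its coregulators 3 rose and 8 fell with both against LPS at 4 h (median -0.24). Of 13 macrophage lineage regulators, which include the set's Maf and Cebpb, 4 rose and 9 fell (median -0.61). Irf8 was among the falls (-3.07 ± 0.06, adjusted p = 3.3e-30). Klf4 rose (3.13 ± 0.13, adjusted p = 5.2e-17). In 13 genes of lipid-handling nuclear receptors 4 rose and 6 fell (median -0.11), and in 13 genes of TGF-beta and Smad signalling 3 rose and 8 fell (median -0.22). Scaling by totals alone adds 0.22 (log2) to these values, as much as or more than the last 2 medians, so their sign depends on the scaling. With both against LPS at 24 h, 21% of all genes tested were called higher and 22.6% lower. In that comparison the classical targets had 18 higher and 5 lower (median 1.76). The receptor and its coregulators had 4 higher and 3 lower (0.08), and the lineage regulators 5 higher and 4 lower (0.04). The lipid-handling list then had 3 higher and 4 lower (-0.12), and the TGF-beta list 5 higher and 8 lower (-0.59).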

How the data were processed

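RNA-seq libraries of mouse bone marrow-derived macrophages were deposited as 1 table of raw counts per gene. The counts were made with featureCounts 2.0.0 on exons of the GENCODE M29 annotation, for read pairs, without strand and without the options that count multi-mapping or overlapping reads, per the file headers. STAR and the builds GRCm38 and mm10 are named in the submitters' processing notes, and no coordinates of the table are used here. Counting without strand cannot tell a gene from an overlapping antisense gene.

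Gene symbols and gene types came from GENCODE M21 by gene ID, for 52081 of 55357 genes. The other 3276 held 0.201 to 0.457% of a library's counts. Counts were fitted with edgeR 4.0.16 (quasi-likelihood, robust, TMM factors of 0.679 to 1.184, limma 3.58.1, R 4.3.3) over all 24 libraries, with 1 term per group. The filter on low counts left 14985 genes, all 54 members among them. Tests are two-sided with Benjamini-Hochberg adjustment and a threshold of 0.05. At 18326206 to 27908164 counts per library the biological coefficient of variation was 6.29%. The authors' replicates were taken as deposited.

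Named genes are the 10 with the highest ratios and the 10 with the highest levels under dexamethasone at 4 h, the 5 largest rises and falls at 24 h, the 5 highest and lowest LPS ratios at 4 h, and those nearest each bound, with others named by role. The members, gene lists (classical glucocorticoid targets, the receptor and its coregulators, macrophage lineage regulators, nuclear receptors of lipid handling, TGF-beta and Smad signalling) and cell markers were chosen with earlier results of these data known. Alternatives were DESeq2 1.42.0, other scalings, filters, added CPM, fits of fewer groups, a replicate block, and leaving out each library.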

Additional observations from a re-analysis of the deposited data

Results flagged for a closer look

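For 20 genes of the set, dexamethasone moved the level 1 way on its own at 24 h and the other way under LPS, both called by edgeR, and the test of the difference (the effect under LPS minus the effect without it, log2) was called as well. For 19 of them the level rose with dexamethasone alone and was lower with both treatments than with LPS. The difference was -6.52 for Vcan, -3.65 for Acpp, -3.03 for Kdm6b, -2.93 for Gab1, -2.51 for Socs3, -2.43 for Jag1, -2.36 for Sema4a, -2.27 for Stk17b, -2.15 for Il4ra and -2.12 for Serpinb8. It was -1.94 for Adam19, -1.84 for Nfil3, -1.71 for P2ry14, -1.51 for Gbp7, -1.39 for Rnd3, -1.31 for Casp4, -1.31 for Ttc39c, -0.98 for Tlr8 and -0.95 for Tnfrsf1b. Azin1 went the other way at 1.201, lower with dexamethasone alone and higher with both than with LPS. The rule that chose the genes had set an upper limit on the effect under LPS, so these differences are a description. Of all genes tested, the difference was called lower for 17.8% and higher for 20.5%. The share of all genes with opposite effects was not counted, so nothing is read from the number of 20. Groups of 3 libraries were not searched for outlying samples.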

How the results depend on the processing

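The number of genes that met the rule was 54, and it was 71 with TMM scaling and 74 with DESeq2 size factors, each sharing 52 genes with the 54. It was 56 with 0.1 CPM added (54 shared), 54 with 1 CPM added (49 shared), 78 without the bound at 24 h (the 79 of the earlier step less Slc28a2, dropped by its symbol), and 52 to 56 without single libraries. Over the alternatives tried, dexamethasone at 24 h raised 39 to 41 genes and lowered 6 to 7, and without single libraries 39 to 40 and 6 to 7. LPS at 24 h raised 30 to 32 and lowered 12 to 18, the 18 with library-size scaling only, and without single libraries 30 to 32 and 12 to 13. The interaction was higher for 5 and lower for 35 to 36 in all fits. Classical glucocorticoid targets with both against LPS at 4 h gave 14 to 16 higher and 8 to 9 lower. Flt1 with dexamethasone at 24 h, not called (-0.08), changed sign without untreated library 3 (0.12, adjusted p = 0.79 by edgeR), with values of -0.33 to 0.12 without single libraries. Ifi209 lost its call in a fit of the compared groups only (-0.74, adjusted p = 0.11), and Cyth3 (0.16, adjusted p = 0.062) and Adck1 (0.23, adjusted p = 0.10) without a filter on low counts. The cause was not tested.

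The labels do not say if the replicate numbers of the titles pair the libraries. Deviations of same-numbered libraries correlated at -0.05 to 0.10 in the pairs of groups compared. Correlations this weak show no clear pairing and cannot exclude one. With the replicate block, dexamethasone at 24 h raised 41 and lowered 7 genes, LPS raised 31 and lowered 13, the interaction was higher for 5 and lower for 35, and the glucocorticoid targets gave 15 and 9, the same counts as without it.

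Depth limits Epha2, AA467197 and Flt1 at 24 h, which had 23 counts or fewer over 3 libraries in at least 1 group.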
